A study of Mus musculus with 9 samples.

Results

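Peaks of accessible chromatin were examined at 9 genes that encode transcription factors of mesenchymal cells, Twist1, Twist2, Tcf21, Prrx1, Prrx2, Snai1, Snai2, Zeb1 and Zeb2, among 21938 protein-coding genes of the annotation (GENCODE M21, mm10). The genes were chosen by name, with earlier results of these data known, and for each one all peaks within 1 kb of an annotated transcription start site (TSS) and all peaks in the gene body and 50 kb on either side were taken from the 4 peak lists of the study. After peaks that overlapped between lists had been merged into sites, the 9 windows held 138 of the 128522 sites of the series.

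Accessibility had been measured by ATAC-seq, in which the transposase Tn5 inserts sequencing adapters where chromatin is open, in primary mouse embryonic fibroblasts (MEFs) below passage 8. The comparison covered 4 groups. Wild-type (WT) MEFs had 3 libraries, and MEFs from Anp32e null embryos, which lack the H2A.Z chaperone ANP32E, had 3. Anp32e null MEFs transfected with a pool of non-targeting siRNAs (NT siRNA) had 1 library, and Anp32e null MEFs transfected with a pool of siRNAs against H2A.Z (H2A.Z siRNA) had 2. Both siRNA groups carry the Anp32e null genotype and were exposed to a lipid transfection reagent, which the untreated WT and null groups were not. Loss of ANP32E and depletion of H2A.Z were taken from the labels, since peaks do not measure the level of either. The libraries of a group had been merged before peaks were called, so each group is 1 list. No difference below has a replicate check, no test between groups was possible, and the intervals given cover counting error only.

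The lists held 84040 peaks for WT, 82567 for null, 89272 under NT siRNA and 108409 under H2A.Z siRNA. The background recovered from the lists, in fragments at an average position, was 8.85 in WT, 5.12 in null, 3.88 under NT siRNA and 17.8 under H2A.Z siRNA, so by background the H2A.Z siRNA list was the deepest and the NT siRNA list the shallowest. The median summit gave another order, with 50 fragments in WT, 43 in null, 54 under NT siRNA and 156 under H2A.Z siRNA. Equal depth below means that the background alone was matched, by scaling each list to that of NT siRNA. Each peak carries a fold enrichment, the ratio of fragments at its summit to the local background around it. To compare lists of unequal depth, the fold of a peak was expressed as its percentile rank within its own list, where 100 is the most enriched peak. A rise or fall shared by most peaks of a list leaves such ranks unchanged.

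Twist1, Twist2 and Tcf21 are basic helix-loop-helix factors, which pair with E proteins and bind E-boxes of the form CANNTG. Prrx1 and Prrx2 are paired-related homeodomain factors of limb and craniofacial mesenchyme. Snai1, Snai2, Zeb1 and Zeb2 are zinc finger repressors that bind the E-box CACCTG, read as CAGGTG on the opposite strand, and silence epithelial genes such as Cdh1 during epithelial to mesenchymal transition. All of these families are active in fibroblasts, and their genes are classical markers of mesenchyme in the embryo.

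The sequences at the sites the results turn on are shown first, from GRCm38 (mm10), 5′ to 3′ on the plus strand, with CANNTG and TGANTCA, the AP-1 motif, in capitals. The first set holds 5 of the sites that were called in all 3 Anp32e null lists and not in WT. Each is the 101 bp centred on the summit, at chr12:33981517-33981617, chr2:167532264-167532364, chr2:167586206-167586306, chr1:91844576-91844676 and chr1:163290869-163290969 in the order given.
Twist1 +23.9 kb, intergenic: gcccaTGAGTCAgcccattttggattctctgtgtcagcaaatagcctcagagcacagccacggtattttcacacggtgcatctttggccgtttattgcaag
Snai1 -5.9 kb, intergenic: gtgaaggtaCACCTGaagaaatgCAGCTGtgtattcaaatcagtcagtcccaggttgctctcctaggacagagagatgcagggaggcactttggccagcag
Snai1 +48.1 kb, intron of Gm11476: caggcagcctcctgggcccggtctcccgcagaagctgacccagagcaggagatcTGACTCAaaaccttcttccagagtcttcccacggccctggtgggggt
Twist2 +43.2 kb, intron of Twist2: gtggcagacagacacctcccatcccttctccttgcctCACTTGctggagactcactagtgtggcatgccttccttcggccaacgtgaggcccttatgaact
Prrx1 +22.8 kb, intron of Prrx1: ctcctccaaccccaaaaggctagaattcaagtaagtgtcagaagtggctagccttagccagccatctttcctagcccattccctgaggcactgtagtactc
The site 5.9 kb upstream of Snai1 holds the Snail and ZEB form of the E-box, CACCTG, and the site 23.9 kb downstream of the Twist1 TSS holds an AP-1 motif with none of the E-boxes in the stretch shown.

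The second set holds 3 sites outside the promoter core that carry other results below. They are the most enriched site of Twist2 outside its promoter, at chr1:91816749-91816849, the Zeb2 site that reached the highest percentile in any list, at chr2:44969361-44969461, and the site just upstream of the first Prrx2 TSS that reached the middle of the ranking only in the siRNA lists, at chr2:30833740-30833840.
Twist2 +15.3 kb, intron of Twist2: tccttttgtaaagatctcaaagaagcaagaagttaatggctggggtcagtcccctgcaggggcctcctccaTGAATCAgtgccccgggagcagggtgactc
Zeb2 +148.0 kb, intergenic: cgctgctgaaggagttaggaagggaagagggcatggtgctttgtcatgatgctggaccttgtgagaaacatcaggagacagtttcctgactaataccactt
Prrx2 -1.2 kb, intergenic: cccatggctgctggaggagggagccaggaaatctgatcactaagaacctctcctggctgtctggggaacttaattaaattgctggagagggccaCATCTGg
The Zeb2 stretch holds neither motif, and the Prrx2 stretch ends in an E-box.

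For promoters, the RefSeq promoter table of GRCm38.p6 matched 7 of the 9 genes, all but Snai2 and Zeb1. The 150 bp just upstream of the TSS are shown for Snai1 (chr2:167538045-167538194) and Twist1 (chr12:33957521-33957670), both on the plus strand, because their promoter peaks cover this stretch in all 4 lists.
Snai1 promoter: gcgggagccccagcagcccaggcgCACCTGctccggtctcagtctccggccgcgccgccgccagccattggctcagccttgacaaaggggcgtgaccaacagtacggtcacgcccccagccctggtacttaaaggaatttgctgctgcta
Twist1 promoter: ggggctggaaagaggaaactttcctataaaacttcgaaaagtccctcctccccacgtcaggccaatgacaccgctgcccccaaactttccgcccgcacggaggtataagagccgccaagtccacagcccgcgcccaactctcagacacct
The Snai1 stretch holds 1 E-box of the CACCTG form and 11 CpG dinucleotides, and the Twist1 stretch holds 9 CpG and no E-box. In the 250 bp upstream of the TSS, CpG numbered 27 at Snai1, 23 at Twist2, 21 at Prrx2 (at an internal start), 18 at Twist1, 5 at Tcf21 and 4 at Prrx1, with a median of 6 over 32851 promoters of the table. At Zeb2, 4 annotated starts had 6 to 14. CAGGTG or its complement was present in 17.2% of those promoters, and Snai1 was the one matched gene that held it. TAATTA, a core bound by many homeodomain proteins, was present in 4.84% of promoters and, among the matched genes, at Prrx1.

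The fibroblast label was checked against promoter peaks of marker genes, which show open chromatin and not expression. Of all protein-coding genes, 67.2% in WT, 66.7% in null, 66.8% under NT siRNA and 68.4% under H2A.Z siRNA had a promoter peak. The median percentiles of these peaks were 81.7, 80.0, 79.5 and 81.5. Of 10 fibroblast markers, among them Pdgfra, Pdgfrb, Col1a1 and Thy1, 9 had a promoter peak in every list, and Lum had none in any. Of 8 blood cell markers 3 had a peak in WT, 3 in null, 2 under NT siRNA and 3 under H2A.Z siRNA, and the defining markers Ptprc, Cd3e and Cd79a had none in any list. Csf1r (52.1, 59.5, 48.3 and 58.4 in WT, null, NT siRNA and H2A.Z siRNA) and Cd68 (15.4, 28.9, 24.6 and 43.0), markers of macrophages, had a peak in all 4. Endothelial markers had 6, 5, 6 and 6 of 8, and neural markers 5, 6, 6 and 6 of 8, in the same order, with Tie1, Emcn, Neurod1 and Elavl3 without one in any list. The endothelial receptor genes Kdr (88.1, 87.0, 90.2 and 86.8) and Tek (91.9, 86.9, 77.8 and 85.5) ranked above every fibroblast marker in each list. The median of the endothelial promoter peaks was 53.2, 62.1, 69.5 and 80.8, and that of the fibroblast ones 55.8, 48.4, 45.9 and 52.8. Muscle markers had 4 and 5 of 8 in WT and null and 2 and 3 in the siRNA lists. The myogenic factor Myf6 ranked at the 86.3 percentile in WT and 60.3 in null and had no promoter peak in either siRNA list, and Myog and Ttn had none in any list. Actn2 (46.5, 71.1, 74.3 and 83.5) and Ckm (35.9, 40.1, 78.6 and 78.4), genes of the sarcomere and of muscle energy supply, ranked higher in both siRNA lists. The part of other cell types in the results below was not tested.

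A promoter peak was present at 8 of the 9 genes in each of the 4 lists, all but Tcf21. Among all protein-coding genes the share with a promoter peak was 67.2% in WT, 66.7% in null, 66.8% under NT siRNA and 68.4% under H2A.Z siRNA. By fold, the promoter peaks of these genes ranked lower than those of most genes. Their median percentile, taking the highest peak within 1 kb of a TSS, was 65.9 in WT, 62.3 in null, 57.6 under NT siRNA and 65.7 under H2A.Z siRNA, against medians of 81.7, 80.0, 79.5 and 81.5 over all genes with a promoter peak. By fold, Snai2 ranked highest and Prrx1 lowest in every list. This order depended on the measure ranked. Under NT siRNA, the rank by −log10 p was 49.0 for Prrx1 and 48.8 for Zeb2, and 97.4 for Snai1 and 97.2 for Snai2. Ranked by summit fragments rather than fold, an ordering chosen after the data had been seen, Prrx1 was lowest in no list.

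**Figure D1:**
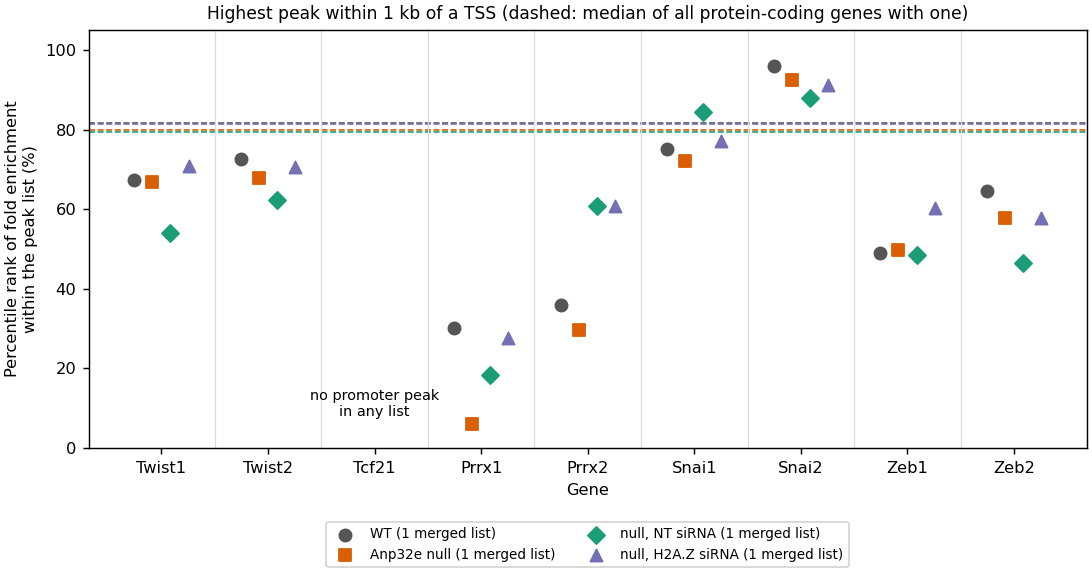
Percentile rank of fold enrichment (y axis, %) of the highest peak within 1 kb of a TSS for each gene (x axis), with 1 point per merged list and dashed lines at the median of all protein-coding genes with a promoter peak in that list. Snai2 lies above the dashed lines in all 4 lists, Snai1 in NT siRNA alone, and the other genes with a peak lie below them.

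Among the basic helix-loop-helix genes, the promoter of Twist1 (ENSMUSG00000035799.6, chromosome 12, 33957671 to 33959829, plus strand) ranked at the 67.3 percentile in WT, 66.9 in null, 54.2 under NT siRNA and 70.8 under H2A.Z siRNA. The NT siRNA value was the lowest by fold alone. The ranks were 75.2, 84.0, 79.6 and 88.3 by −log10 p and 79.4, 88.5, 84.8 and 90.5 by summit fragments. Twist1 specifies cranial and limb mesenchyme. Its peak was very broad, 2350 bp in WT, 2410 in null, 2088 under NT siRNA and 2407 under H2A.Z siRNA, and covered the TSS and coding exon, with the summit 515 to 656 bp downstream of the TSS. By width it stood at or above 98.7%, 99.1%, 97.4% and 96.8% of promoter peaks in the same order.

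The promoter of Twist2 (ENSMUSG00000007805.4, chromosome 1, 91801461 to 91848028, plus strand), the close relative of Twist1 expressed in dermal fibroblasts, ranked at 72.6, 67.9, 62.3 and 70.5 in WT, null, NT siRNA and H2A.Z siRNA. Its peak was the broadest of the 9 genes, at 2438, 2573, 2681 and 2757 bp. Its summit held 109 fragments in WT, 86 in null, 301 under NT siRNA and 1051 under H2A.Z siRNA. Ranked by summit fragments, the Twist2 promoter stood at 79.4, 75.1, 92.0 and 92.0. Around this broad peak the local background used for the fold was 8.47 times the genome-wide background in NT siRNA and 1.86 times in WT.

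Tcf21 (ENSMUSG00000045680.8, chromosome 10, 22817281 to 22820174, minus strand), a factor of visceral and cardiac mesenchyme, had no promoter peak in any list. Its window held 3 sites in all, and the one present in all 4 lists lay 4.2 kb downstream of the TSS, beyond the end of the gene, at an exon of Gm10824, a noncoding gene annotated as antisense that runs across Tcf21 on the opposite strand. That site ranked at 75.4 in WT, 70.0 in null, 78.0 under NT siRNA and 85.2 under H2A.Z siRNA. The other two were weak peaks of 1 list each, WT at the 7.3 percentile and NT siRNA at 12.2.

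Prrx1 (ENSMUSG00000026586.16, chromosome 1, 163245119 to 163313710, minus strand) had the lowest promoter of the 8 by fold. It ranked at 30.1 in WT, 5.98 in null, 18.3 under NT siRNA and 27.8 under H2A.Z siRNA. Only 7.45%, 1.06%, 3.45% and 5.44% of all genes' promoter peaks stood at or below it. The peak held 59 fragments in WT, 38 in null, 97 under NT siRNA and 362 under H2A.Z siRNA, and it was 784, 317, 441 and 943 bp wide. By −log10 p it ranked at 43.8, 20.3, 49.0 and 56, and by summit fragments at 58.2, 44.8, 68.9 and 73.3. With lists of equal length the ranks by fold were 28.9, 5.98, 11.7 and 7.07, so that H2A.Z siRNA stood below NT siRNA, and at equal depth they were 19.3, 4.87, 18.3 and 21.5.

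Prrx2 (ENSMUSG00000039476.13, chromosome 2, 30834972 to 30881251, plus strand) had a different highest promoter peak in the siRNA lists than in the others. The highest promoter peak ranked at 36.0 in WT, 29.7 in null, 61.0 under NT siRNA and 60.8 under H2A.Z siRNA. In WT and null this was a peak at an internal start 10.5 kb into the gene. The peak at that start ranked at 46.9 under NT siRNA and 48.4 under H2A.Z siRNA. In both siRNA lists it was a peak 1.2 kb upstream of the first TSS, 1197 and 1242 bp wide with 133 and 454 summit fragments. At that site WT had a 216 bp peak at the 1.4 percentile, which ended more than 1 kb from the TSS, and null had no peak.

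Snai1 (ENSMUSG00000042821.7, chromosome 2, 167538195 to 167542814, plus strand), which encodes Snail, had a compact promoter peak of 665 to 785 bp, with the summit 36 to 108 bp upstream of the TSS, inside the stretch with the CACCTG E-box. It ranked at 75.0 in WT, 72.1 in null, 84.4 under NT siRNA and 77.2 under H2A.Z siRNA, second by fold among the 9 genes in every list. Its summit held 150, 128, 497 and 1485 fragments. A second, weak peak lay in the coding exon 1.0 kb downstream and ranked at 6.27, 0.293, 1.51 and 10.6.

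Snai2 (ENSMUSG00000022676.7, chromosome 16, 14705852 to 14709385, plus strand), which encodes Slug, had the most enriched promoter by fold. It ranked at 96.1 in WT, 92.5 in null, 88.0 under NT siRNA and 91.3 under H2A.Z siRNA, with folds of 12.3, 12.9, 14.8 and 14.1. By −log10 p the ranks were 95.6, 95.6, 97.2 and 98.7, and by summit fragments 94.8, 95.3, 97.2 and 98.5, with both siRNA lists above WT. The peak was 1346 to 1547 bp wide, with its summit 225 to 277 bp upstream of the TSS, and held 244, 246, 463 and 1969 fragments. The Snai2 window was otherwise nearly empty. It held 2 further sites, a weak WT peak at the 2.06 percentile in the coding exon and a peak 15.1 kb downstream of the TSS that was called in H2A.Z siRNA alone at 36.4.

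Zeb1 (ENSMUSG00000024238.15, chromosome 18, 5591860 to 5775467, plus strand) ranked at 49.1 in WT, 49.7 in null, 48.5 under NT siRNA and 60.3 under H2A.Z siRNA. By −log10 p it ranked at 47.7, 49.0, 68.6 and 76.8, and by summit fragments at 45, 48.3, 75.1 and 80.8, higher in both siRNA lists. In WT the region around the first TSS and the next start downstream held 3 separate peaks of 527, 357 and 523 bp. In null it held 2, of 1114 and 485 bp, and in NT siRNA and H2A.Z siRNA a single peak of 2310 and 2395 bp covered it. Local background at this peak was 1.18 times the genome-wide background in WT and 4.43 times in NT siRNA.

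Zeb2 (ENSMUSG00000026872.17, chromosome 2, 44983632 to 45117395, minus strand) ranked at 64.5 in WT, 57.7 in null, 46.5 under NT siRNA and 57.9 under H2A.Z siRNA. At equal depth the ranks were 58.1, 57.3, 46.5 and 52.5, with WT and null nearly level. By summit fragments the same peak ranked at 55.8, 59.0, 39.9 and 55.4. The peak at the first TSS was 337 bp wide in WT and 362 bp in null, beside a separate peak of 378 and 615 bp just downstream. In NT siRNA and H2A.Z siRNA 1 peak of 1054 and 1273 bp spanned both positions. A further promoter site about 7.0 kb into the gene, at internal starts close to that of the gene Zeb2os, ranked at 49.4, 42.1, 33.3 and 49.8.

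For each gene with a promoter peak in all lists, the genes with the most similar 4 percentiles were sought among 13986 genes, likeness being the largest difference in any list. The nearest were Rbm26 for Snai2, with a largest difference of 0.764 points, 1700003E16Rik and Wdr54 for Snai1 (1.26), Foxb2 for Zeb2 (1.34), Ring1 for Zeb1 (1.46), Fzd5 for Twist2 (1.59), Prim2 for Twist1 (2.54) and Lsm7 and Sppl2b for Prrx2 (2.88). Prrx1 had the most distant neighbours, Duox2 and Duoxa2, at 5.04 points. None of the 9 genes was the nearest neighbour of another.

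Across the windows, 92 peaks were called in WT, 93 in null, 119 under NT siRNA and 127 under H2A.Z siRNA. Their median widths were 513 bp (95% interval 448 to 616), 541 (448 to 652), 592 (499 to 684) and 731 (622 to 898), beside 572, 561, 539 and 658 bp over the whole lists. Their median percentiles were 47.8, 42.4, 43.5 and 48.2, and 5, 6, 4 and 7 peaks were among the most enriched 10% of their list. Prrx2 and Snai1 had the densest windows. Per 100 kb, Prrx2 had 13.7, 11.6, 17.8 and 18.5 peaks and Snai1 had 11.5, 12.4, 17.2 and 20.1, against medians over all genes of 5.38, 5.19, 5.87 and 7.28. Tcf21 and Snai2, at 0.966 to 1.94 peaks per 100 kb, stood below most genes in every list.

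**Figure D2:**
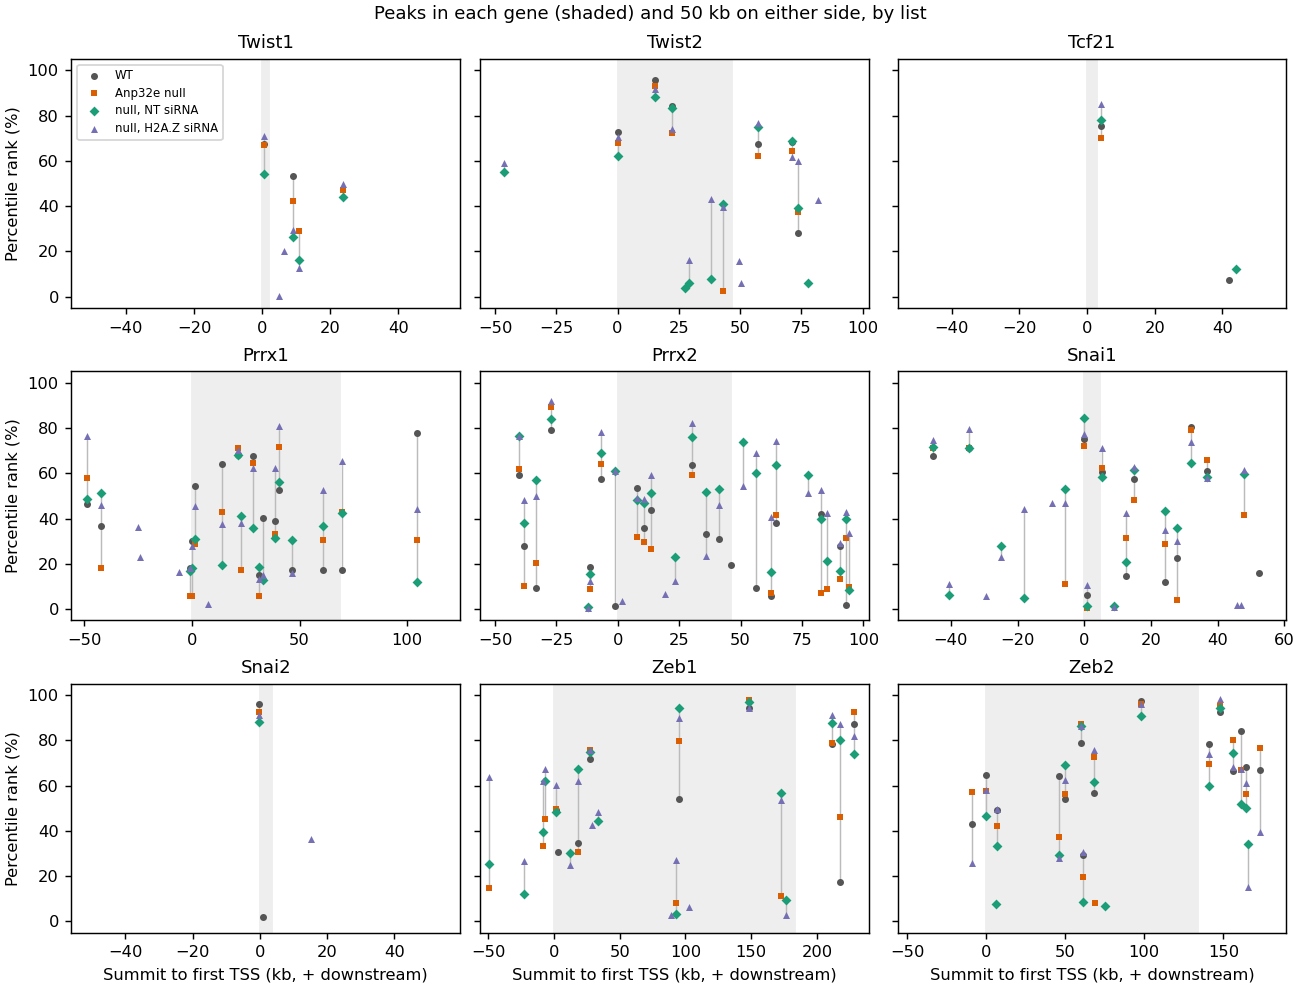
Percentile rank of each peak (y axis, %) against the distance of its site from the first TSS of the gene (x axis, kb, positive downstream), with 1 panel per gene, 1 marker per list, the gene body shaded and a grey line joining the lists at a site. Zeb1 and Zeb2 carry their most enriched sites at distances of 97.7 to 148.7 kb, inside or just past the gene, whereas Snai2 has its top site at the promoter.

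The sites below are those that reached the highest percentile in any list, outside the genes' own promoters. In the introns of Zeb1, a site 148.7 kb from the first TSS ranked at 94.2 in WT, 97.7 in null, 97.0 under NT siRNA and 94.1 under H2A.Z siRNA, far above the Zeb1 promoter. Downstream of Zeb2, the intergenic site at 148.0 kb ranked at 92.7, 95.2, 94.3 and 98.4, and an intronic site at 97.7 kb, named after its values had been seen, at 97.2, 96.0, 90.8 and 96.0. In the intron of Twist2, the site at 15.3 kb ranked at 96.0, 93.2, 88.3 and 91.7. Each of these sites was strong in all lists, including the untreated WT cells.

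The highest sites of the other genes were lower or belonged to a neighbour. At Prrx2 the highest site, 27.2 kb upstream, was the promoter of the neighbouring gene Ntmt1 (79.1, 89.4, 84.0 and 92.1). At Snai1 it lay 32.1 kb downstream in an intron of Gm11476 (80.2, 79.2, 64.6 and 73.8), above the promoter in WT and null and below it in both siRNA lists. Under NT siRNA the Snai1 sites 45.3 kb and 34.5 kb upstream, at 71.7 and 71.2, also ranked above it, as they did under H2A.Z siRNA at 74.5 and 79.5. Both lie at promoters of the neighbouring gene Rnf114. At Prrx1 it was an intronic site at 40.4 kb (52.7, 71.8, 56.1 and 80.9), which ranked above the promoter in every list. It was not the highest Prrx1 site throughout, since those at 104.5 and 28.1 kb ranked at 77.8 and 67.6 in WT and the one at 21.5 kb at 68.1 under NT siRNA. At Twist1 it was an intergenic site at 9.0 kb (53.4, 42.4, 26.2 and 29.4), which ranked below the promoter in every list and, outside WT, below the site at 23.9 kb (47.1, 44.3 and 49.6 in null, NT siRNA and H2A.Z siRNA).

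Of the 138 sites, 71 (51.4%) were called in all 4 lists, compared with 45.9% of all sites of the series. These 71 comprised 11 of the 16 sites at the genes' own promoters, 11 of 14 at promoters of other genes, 22 of 44 inside the genes and 27 of 64 outside them. The next patterns by number were 19 sites called in H2A.Z siRNA alone (13.8%, against 13.9% of all sites), 16 in both siRNA lists alone (11.6%, against 8.99%) and 13 in the 3 Anp32e null lists and not WT (9.42%, against 5.50%). A further 6 were called in WT and both siRNA lists but not in untreated null (4.35%, against 3.13%), 5 in NT siRNA alone (3.62%, against 2.35%) and 5 in WT alone (3.62%, against 6.94%). Zeb1 had the most sites called in the 3 null lists and not WT, 5 of its 21, and Prrx2 had 4 of the 6 that null alone lacked.

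**Figure D3:**
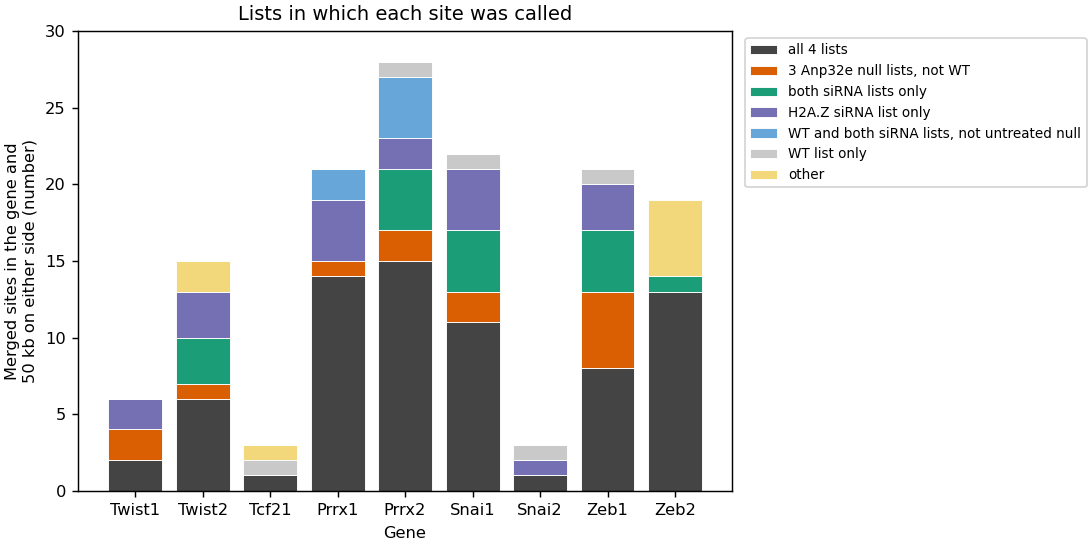
Number of merged sites (y axis) in each gene and 50 kb on either side (x axis), coloured by the lists in which the site was called. Prrx2 has 28 sites and Snai2 and Tcf21 have 3 each, and Zeb1 has 5 sites in the colour for the 3 Anp32e null lists without WT.

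The comparison of null with WT addresses what changes in cells without ANP32E. By calls and by rank within each list, the sites near these genes changed about as often as sites elsewhere. The paper reports a widespread rise in accessibility in null cells. Ranks within a list cannot show such a shared rise. Of 98 sites called in either list, 14 were called in null and not WT, or 14.3% (95% Wilson interval 8.70 to 22.6), where 14.6% of all sites were. In the other direction 11 were called in WT and not null, or 11.2% (6.38 to 19.0), against 16.4%. At the 73 sites called in both, the median rank change was -2.79 points (95% interval -5.51 to 2.09), against -0.74 over all shared sites. A rank at least 10 points higher in null was found at 14 sites, or 19.2%, against 19.1% of all shared sites, and at least 10 points lower at 17, or 23.3%, against 21.4%. Peaks at least 1.5 times wider in null numbered 4, and at least 1.5 times narrower 8, where the shares over all shared sites were 7.56% and 9.12%. With the backgrounds of all lists matched, the median rank change was 0.846 points, the opposite direction. No all-site value at matched background stands beside it, so it cannot be told apart from a shift of the whole list.

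The genes were then taken singly. At Zeb1, 5 sites were called in null and not WT and 1 the other way, and 7 of 8 shared sites ranked higher in null, with a median change of 3.74 points. At Prrx2, 2 sites were called in null and not WT and 5 the other way, and of 15 shared sites 7 ranked higher in null and 8 lower, with a median of -4.26 points. At equal depth the counts at Prrx2 were 4 and 3, and 7 of 13 shared sites ranked higher, with a median of 0.75. At Prrx1, 9 of 14 shared sites ranked lower in null, with a median of -7.36 points, and at equal depth 6 of 12 ranked higher and 6 lower, with a median of -2.44. Zeb1 had 6 against 1 site and 7 of 7 shared sites higher at equal depth. That scaling thinned WT more than null. Over all 9 windows, WT went from 84 to 74 sites and null from 87 to 86. It is therefore no independent check of a change toward null. Whether Zeb1 and Prrx2 differ beyond library variation cannot be tested with 1 list per group.

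The sites of the 3 null lists without a WT peak were not the strongest ones. At Zeb1 they lay 6.5 kb upstream of the TSS (45.1 in null, 62.0 under NT siRNA, 67.5 under H2A.Z siRNA), 8.1 kb upstream (33.4, 39.5 and 62.0), 49.2 kb upstream (14.7, 25.5 and 63.7), and 172.5 kb (11.3, 56.6 and 53.7) and 93.1 kb (7.92, 3.18 and 27.0) downstream. The sites at 6.5 and 8.1 kb lie over exons of Gm10125, a transcript of the opposite strand. At Snai1 the site at 48.1 kb ranked at 41.6, 59.5 and 61.4, and the one 5.9 kb upstream, with the CACCTG E-box shown above, at 11.3, 52.8 and 46.7.

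At Twist1 the site at 23.9 kb, with the AP-1 motif shown above, ranked at 47.1, 44.3 and 49.6, nearly level in the 3 lists. A second Twist1 site at 10.7 kb ranked at 28.9, 16.1 and 12.5. Twist2 had 1 such site at 43.2 kb (2.58, 41.1 and 39.8), Prrx1 had 1 at 22.8 kb (17.3, 41.1 and 37.9), and Prrx2 had 2, at 85.4 kb (8.92, 21.1 and 42.6) and 94.2 kb (9.85, 8.55 and 33.6), both in the neighbouring gene Ptges. Of the 13 sites, 12 in null and 13 under H2A.Z siRNA were still called at equal depth. The NT siRNA list sets that depth and could lose none. Scaling cannot add a WT peak, so it is no check of their absence in WT. Of the 5 sites called in WT alone, 1 reached the 25 percentile, an intronic site 3.2 kb downstream of the first Zeb1 TSS that ranked at 30.9.

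The 3 shared sites that ranked most below their WT position in null were an intergenic site past the end of Prrx1 at 104.5 kb (77.8 in WT, 30.6 in null, 12.2 under NT siRNA and 44.4 under H2A.Z siRNA), a site at 82.9 kb from Prrx2 in an intron of Ptges (42.1, 6.93, 39.7 and 52.6), and an intronic Zeb2 site at 45.9 kb (64.2, 37.3, 29.4 and 28.1). The 3 that ranked most above it were a site at 92.8 kb from Prrx2 (1.89, 31.5, 40.0 and 43.1), the intergenic site past Zeb1 at 217.7 kb (17.2, 46.3, 80.0 and 87.3), and a site past Prrx1 at 69.8 kb (17.2, 43.0, 42.5 and 65.6). The Prrx1 window, past the end of the gene, held sites of both kinds.

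The comparison of NT siRNA with untreated null holds the genotype fixed and contrasts transfected with untransfected cells. Transfection, library depth and any difference in preparation between these lists cannot be told apart. Of 114 sites called in either list, 27 were called in NT siRNA and not null, or 23.7% (16.8 to 32.3), against 19.2% of all sites. In the other direction 3 were called in null and not NT siRNA, or 2.63% (0.899 to 7.45), against 13.1%, and all 3 lay at Zeb2. At the 84 shared sites the median rank change was 1.98 points (-1.19 to 8.96), against 0.473 over all shared sites. It was -0.552 with lists of equal length, and above the interval with ranks by −log10 p or by summit fragments. No all-site value stands beside these alternatives. A rank at least 10 points higher in NT siRNA was found at 31 sites, or 36.9%, against 26.9%, and at least 10 points lower at 14, or 16.7%, against 20.4%. Peaks at least 1.5 times wider numbered 18 and at least 1.5 times narrower 2, where the shares over all shared sites were 10.2% and 8.38%.

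**Figure D4:**
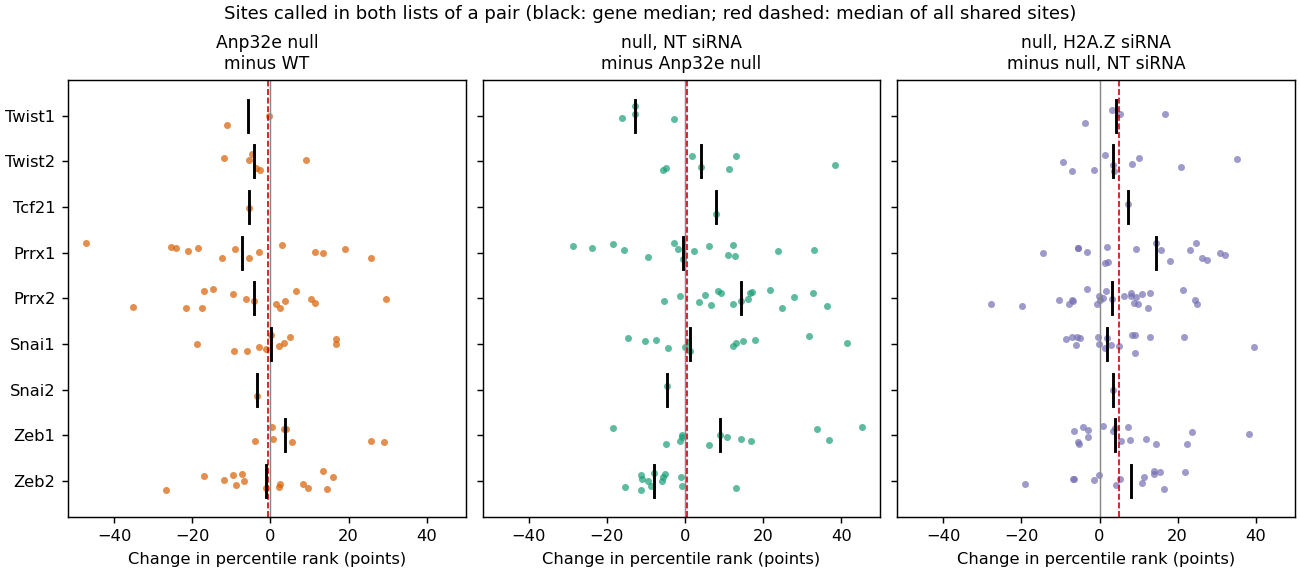
Change in percentile rank (x axis, points) at sites called in both lists of a pair, by gene (y axis), with 1 point per site, the median of each gene as a black bar and the median of all shared sites of the series as a red dashed line. In the middle panel the Prrx2 sites lie mostly to the right of 0 and the Zeb2 sites mostly to the left.

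The genes differed among themselves in this comparison. At Prrx2, 15 of 17 shared sites ranked higher in NT siRNA, with a median of 14.4 points, and 8 sites were called in NT siRNA and not null with none the other way. At Zeb2, 12 of 13 shared sites ranked lower, with a median of -7.93 points, and 3 sites were called in NT siRNA and not null with 3 the other way. All 4 shared Twist1 sites ranked lower, by a median of -12.8 points, while 8 of 13 Zeb1 sites ranked higher, by a median of 8.96. At equal depth the Prrx2 and Zeb2 counts were again 15 of 17 higher and 12 of 13 lower. Ranked by −log10 p, 17 of 17 Prrx2 sites were higher, with a median of 30.1 points. By that measure 12 of 13 Zeb1, 13 of 13 Snai1 and 7 of 7 Twist2 sites were also higher. At Zeb2 12 of 13 and at Twist1 all 4 were lower.

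The sites that ranked furthest above their null position in NT siRNA were Zeb1 at 172.5 kb, Snai1 at 5.9 kb upstream and Twist2 at 43.2 kb, whose values are given above and which all lacked a WT peak. Those furthest below it were 2 intronic Prrx1 sites, at 28.1 kb (64.7 in null and 36.0 in NT siRNA) and 14.0 kb (43.0 and 19.3), and the intergenic site at 228.2 kb from Zeb1 (92.6 and 74.1). The Prrx1 site at 28.1 kb ranked at 62.3 in H2A.Z siRNA.

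The comparison of H2A.Z siRNA with NT siRNA, within the null genotype, contrasts transfected cells with and without siRNA against H2A.Z. The lists also differ in background (17.8 against 3.88) and in libraries (2 against 1). The knockdown cannot be told apart from these differences. This comparison shares the NT siRNA list with the one above, so a value that is low in NT siRNA enters both. Of 132 sites called in either list, 21 were called in H2A.Z siRNA and not NT siRNA, or 15.9% (10.6 to 23.1), against 23.5% of all sites, and 5 the other way, or 3.79% (1.63 to 8.56), against 4.16%. The H2A.Z siRNA list was the deepest, and at equal depth 9 of the 19 sites called in that list alone were still called. The share of sites in H2A.Z siRNA and not NT siRNA was then 9.02%. Neither has an all-site value at equal depth beside it, and the 23.5% is from the unscaled lists.

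At the 106 shared sites the median rank change was 4.06 points (1.87 to 8.07), against 4.98 over all shared sites. A rank at least 10 points higher in H2A.Z siRNA was found at 34 sites, or 32.1%, against 33.6%, and at least 10 points lower at 5, or 4.72%, against 6.08%. Peaks at least 1.5 times wider numbered 23 and narrower 0, where the shares over all shared sites were 24.8% and 0.702%. The median width ratio was 1.25 (1.15 to 1.33) at these genes and 1.24 over all shared sites. With lists of equal length the median rank change was -1.45 points, and no all-site value stands beside it.

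Prrx1 had the largest median of the genes with more than 1 shared site, 14.5 points, with 13 of 17 sites higher in H2A.Z siRNA, and with lists of equal length the median was 3.08 points with 8 of 15 higher. The sites that ranked furthest above their NT siRNA position were 18.1 kb upstream of Snai1 (4.71 under NT siRNA and 44.4 under H2A.Z siRNA), 49.2 kb upstream of Zeb1 (25.5 and 63.7) and an intronic Twist2 site at 38.3 kb (7.77 and 43.0). Those furthest below it were an intronic Prrx2 site at 36.0 kb (51.5 and 23.7), an intergenic Prrx2 site at 51.0 kb (74.0 and 54.2) and an intergenic Zeb2 site at 165.4 kb (34.2 and 15.2).

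Motifs were counted in the 201 bp centred on each summit, on both strands. A CANNTG E-box was present at 87 of the 138 sites, or 63.0%, compared with 67.1% of all sites of the series. The CAGGTG form was present at 15, or 10.9%, against 10.8%, and the AP-1 motif TGANTCA at 43, or 31.2%, against 29.4%. TAATTA was present at 4 sites, or 2.90%, against 3.59%. GGGCGG, the GC box, was present at 19, or 13.8%, against 9.76%, and at 6 of the 16 sites at the genes' own promoters. Of the 13 sites called in the 3 null lists and not WT, 11 held CANNTG, 3 CAGGTG and 7 TGANTCA. The motifs can overlap, a match describes letters and not binding, and median GC content was 51.5% at these sites against 48.8% over all sites.

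Partners and targets of these factors were then listed by role. Of 31 partners and relatives, such as the E proteins Tcf3, Tcf4 and Tcf12, the Id inhibitors, Msx1, Alx1 and Tbx15, 29 had a promoter peak in WT, 28 in null, 30 under NT siRNA and 30 under H2A.Z siRNA. Over all protein-coding genes the shares were 67.2%, 66.7%, 66.8% and 68.4%. Tcf4 ranked at 92.3, 96.7, 91.6 and 95.6, and the heart mesoderm factor Hand1 had a promoter peak in WT alone, at 13.9. All 7 corepressors recruited by Snail and ZEB proteins (Ctbp1, Ctbp2, Hdac1, Hdac2, Kdm1a, Rcor1 and Sin3a) had one in every list. Their medians were 80.8, 84.6, 73.2 and 75.7, against 81.7, 80.0, 79.5 and 81.5 over all genes with a promoter peak.

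Of 11 mesenchymal genes, among them Vim, Fn1, Cdh2 and Sparc, 10 had a promoter peak in each list, all but Loxl2, with median percentiles of 74.3, 68.5, 55.6 and 62.0. Of 20 epithelial genes that Snail, ZEB and Twist factors are known to hold down or to oppose, 15 had one in WT, 16 in null, 19 under NT siRNA and 20 under H2A.Z siRNA, where 67.2%, 66.7%, 66.8% and 68.4% of all genes had one. Their medians were 45.7, 40.4, 43.8 and 52.3. With no peak counted as the lowest rank, 12 of the 20 ranked higher in both siRNA lists than in both untreated lists, or 60%, against 19.8% of all protein-coding genes, and 2 ranked lower in both, or 10.0%, against 19.0%. Cdh1, which encodes E-cadherin, ranked at 36.7 in WT, 38.5 in null, 68.2 under NT siRNA and 58.3 under H2A.Z siRNA. The keratin genes Krt8 (21.5, 23.7, 63.9 and 68.7) and Krt18 (no peak in WT or null, then 29.0 and 25.3) also stood higher in both siRNA lists, as did Cldn7 (6.44, 7.92, 37.4 and 45.1). The other 8 of the 20 were Epcam, Krt19, Ocln, Pkp2, Esrp2, Grhl2, Ovol2 and Rab25. Of these, Ocln ranked at 45.7, 58.6, 31.5 and 41.2 and Epcam at 54.2, 30.6, 50.8 and 58.1. Counted the same way, 1 of the 11 mesenchymal genes ranked higher in both siRNA lists and 7 lower. Of 10 fibroblast markers 3 ranked higher and 1 lower, and of 8 endothelial markers 3 higher and 1 lower. Of 7 corepressors 1 ranked higher and 4 lower. Neural and muscle markers each had 2 of 8 higher and 2 lower. These shares were tallied after the data had been seen and carry no test.

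The miR-200 family is shown because its members are known to bind Zeb1 and Zeb2 transcripts and are themselves repressed by ZEB proteins. Mature sequences are from RefSeq (GRCm38.p6), 5′ to 3′, with the seed, bases 2 to 8, in capitals, and they fall into 2 seed groups.
mmu-miR-200b-3p: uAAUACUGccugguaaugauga
mmu-miR-200c-3p: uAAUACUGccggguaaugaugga
mmu-miR-429-3p: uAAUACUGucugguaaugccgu
mmu-miR-200a-3p: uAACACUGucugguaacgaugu
mmu-miR-141-3p: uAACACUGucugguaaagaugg
Of the 6 microRNA genes listed, these 5 and Mir205, none had a peak within 1 kb of its annotated start in WT or null. Mir141 had one in NT siRNA, at the 5.20 percentile, and in H2A.Z siRNA, at 6.58. The annotated start of a microRNA gene is that of its hairpin, so a peak at the start of the primary transcript would be missed by this count.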

How the data were processed

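ATAC-seq peak lists of 9 libraries in 4 groups were used. The authors had mapped reads to mm10 using Bowtie2 and dropped PCR duplicates using Picard. Libraries of a group were pooled before MACS2 called peaks on paired ends. Each deposited list gives the fold enrichment at the summit as a ratio, the p-value deposited as −log10 p, and a deposited score, −log10 q. Whole-fragment pileups and local backgrounds were recovered from the deposited fold (pseudocount 1) and −log10 p, within 0.05 of a whole number for 100% of peaks. The steps were tested on simulated data. Per the study's methods the authors set aside mitochondrial and blacklisted peaks in later steps. The deposited WT and null lists still held mitochondrial peaks. No blacklist was applied here, and overlap of the lists with one was not checked.

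Peaks on chromosomes 1 to 19, X and Y were kept. Promoters were 1 kb on either side of all 132629 annotated TSSs (GENCODE M21). Peaks sharing at least 1 bp were merged into sites with the rule of bedtools 2.31.1, and the highest-ranked peak stood for a site. Rank medians carry 95% binomial order-statistic intervals. The members and all gene lists were chosen with earlier results of these data known. All members were named at promoters. Sites named were the highest outside each own promoter, up to 10 called in the 3 null lists and not WT, or in WT alone, with a percentile of at least 25, and the 3 largest rank changes each way per pair. For each gene the 2 nearest in promoter percentiles were found. The remaining sites of these 2 patterns, and other sites given as such, were added to complete the counts.

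Alternatives were a −log10 q of at least 5, the top 82567 peaks per list by −log10 p (lists of equal length), scaling of pileups to the shallowest background (equal depth), promoters of 500 bp, protein-coding transcripts alone, flanks of 20 kb, placement by summit and ranks by −log10 p. Ranking by summit pileup was added after the data had been seen. Python 3.11.15, NumPy 2.4.6, SciPy 1.17.1, pandas 2.3.3, samtools 1.23.1 and matplotlib 3.10.9 were used.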

Additional observations from a re-analysis of the deposited data

How the results depend on the processing

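Of 102 alternative values of the main comparisons, 3 changed sign and 6 others left the 95% interval of the reported value. Counts of peaks and of genes were held only to a tolerance of 1.5 times, and all stayed within it. The median rank change of null against WT was 0.846 points at equal depth. That of NT siRNA against null was -0.552 with lists of equal length, 11.5 with ranks by −log10 p and 13.7 with ranks by summit pileup, which was chosen after seeing the data. That of H2A.Z siRNA against NT siRNA was -1.45 with lists of equal length. Sites called in H2A.Z siRNA and not NT siRNA made up 9.73% with lists of equal length and 9.02% at equal depth. Sites called in NT siRNA and not H2A.Z siRNA made up 1.61% at a −log10 q of at least 5 and 8.85% with lists of equal length. These alternatives are given for the windows of these genes alone, without the value over all sites. The cause was not tested beyond the construction of each alternative. Of 200 alternative values for single genes, mostly promoter percentiles, which have no sign and narrow counting intervals, 66 lay higher and 53 lower by more than the same tolerances. Of 27 median rank changes of single genes, 1 changed sign at a −log10 q of at least 5, 5 with lists of equal length, 5 at equal depth, 3 with flanks of 20 kb, 5 with ranks by −log10 p and 7 with ranks by summit pileup. At equal depth those of null against WT were Twist1 (from -5.70 to 0.40 points), Prrx2 (-4.26 to 0.75) and Zeb2 (-1.19 to 4.48). Leaving out libraries could not be done on merged lists. No paired analysis was possible because the merged lists hold no value per library.

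A site with no peak is one not called at the depth of its list, not one without accessibility. Equal depth matched the genome-wide background, 3.88 fragments under NT siRNA, and not the signal at summits or the local background. Of the sites in the 9 windows, 74 in WT, 86 in null and 113 under H2A.Z siRNA remained at equal depth. All 111 under NT siRNA remained, since that list was not scaled.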
